A study of Mus musculus with 5 samples.

Results

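Outside the chaperone genes, 5 protein-coding genes carried some of the strongest HSF1 sites after NMDA: Cep57l1, Acot7, Slc35f1, Ksr2 and Pla2g5. They are 5 of the 21631 protein-coding genes that the RefSeq annotation of GRCm38.p6 places on the autosomes and X. Peaks were taken where the summit lay inside the gene or within 10 kb of it, which gave 7 of the 3646 peaks listed after NMDA and 3 of the 3316 control peaks. The genes were selected on the fold enrichment of their peaks in the NMDA list. Their fold values, their ranks and the presence of an NMDA peak are therefore a description of what was selected and support nothing.

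HSF1 was mapped by ChIP-seq, chromatin immunoprecipitation followed by sequencing, in primary cortical neurons of wild-type Swiss-Webster embryos at embryonic day 16, on culture day 13. The control group had no treatment (2 libraries), and the NMDA group received 50 µM NMDA, an agonist of a class of glutamate receptors, for 10 min with 20 min of recovery without drug (2 libraries). The only input library, sheared chromatin that was not immunoprecipitated, came from neurons without NMDA. Each condition has 1 peak list, so no value has a replicate error, no test between conditions was possible, and peak lists cannot show which cells of the culture gave the signal.

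HSF1 is held inactive in unstressed cells, and on proteotoxic stress it forms trimers that bind heat shock elements, which are inverted repeats of the short unit nGAAn. Chaperone genes are its best known targets, and in neurons HSF1 is also studied for its part in protein homeostasis and synaptic maintenance. The genes described here have other roles. Acot7 encodes an acyl-CoA thioesterase abundant in neurons, which splits fatty acyl-CoA into free fatty acid and coenzyme A. Pla2g5 encodes a secreted, calcium-dependent phospholipase A2, which releases fatty acids from phospholipids. Ksr2 encodes a scaffold that brings RAF, MEK and ERK kinases together. Slc35f1 encodes a membrane protein of the SLC35 solute carrier family, and Cep57l1 a relative of the centrosomal protein CEP57.

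Sequence under the lead peaks, meaning the peak of highest fold at each gene, was not used here. RefSeq promoter windows, from 250 bases before to 50 after a transcription start (GRCm38.p6), matched all 5 genes with 7 windows, and none of the 7 overlapped a peak of either list. The heat shock element was searched on both strands as 2 units, GAANNTTC or TTCNNGAA, and as 3 units, in which a further GAA or TTC follows 2 bases after either form so that the units alternate. Every 3-unit match contains 2-unit matches. None of the 7 windows held the 3-unit form, against 0.603% of all 32851 windows. The 2-unit form was in 1 of 7 windows, that of a downstream start of Pla2g5, against 15.1% of all windows. A spacing control, with the units at another spacing, was also in 1 of 7 windows, against 14.3% of all windows. Its match was in the same Pla2g5 window, so the 2-unit match there is not read as a heat shock element. The Pla2g5 stretch is shown as the only 2-unit match among these genes. The 2 chaperone elements are shown to compare it with a full element beneath a strong NMDA summit. Capitals mark the matched letters in each line, 5′ to 3′ on the strand of the named gene.
Pla2g5, chr4:138819371-138819438, minus strand: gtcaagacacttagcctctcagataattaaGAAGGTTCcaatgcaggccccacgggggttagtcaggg
Hspe1, chr1:55088053-55088082, plus strand: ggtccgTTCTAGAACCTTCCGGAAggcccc
Hsph1, chr5:149636280-149636308, minus strand: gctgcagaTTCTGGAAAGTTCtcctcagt
The Pla2g5 match has 2 units and lay 33.8 kb from the lead summit of that gene. The Hspe1 stretch holds 2 overlapping 3-unit matches, and the NMDA summit that Hspe1 shares with Hspd1 lay at their centre. The Hsph1 element lay 39 bp from its NMDA summit. Among the 26 windows that overlapped an NMDA peak of at least 4-fold, 6 held the 3-unit form (23.1%, exact Clopper-Pearson 95% interval 8.97 to 43.6%). A match is a description of letters, and the absence of one in these windows says nothing about the sequence under the lead peaks.

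The genes were chosen by the fold of their lead peaks, which is given here as a description. The fold of a peak is the authors' value, the ChIP signal of the summit divided by a background, and its median over the NMDA list was 2.69. The lead peak of Cep57l1 had a fold of 24.3, the highest of the list. Acot7 followed with 13.01 at rank 8. Slc35f1 had 11.5 at rank 9, tied with a site inside Top2b. Ksr2 had 10.8 at rank 11, and Pla2g5 had 9.79 at rank 14. In all, 14 NMDA peaks reached the value of Pla2g5, and 4 control peaks did. The 14 consisted of the 5 lead peaks, 4 peaks at the chaperone genes Hspa8, Hsph1, St13 and the pair Hspd1 and Hspe1, 2 inside Top2b and 3 elsewhere. Just above Pla2g5 stood a Top2b site (9.94) and a site at chr14:58484661-58485347 (10.1). Just below it stood another Top2b site (9.18) and a site at chr8:119798530-119799295 (9.16).

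**Figure D1:**
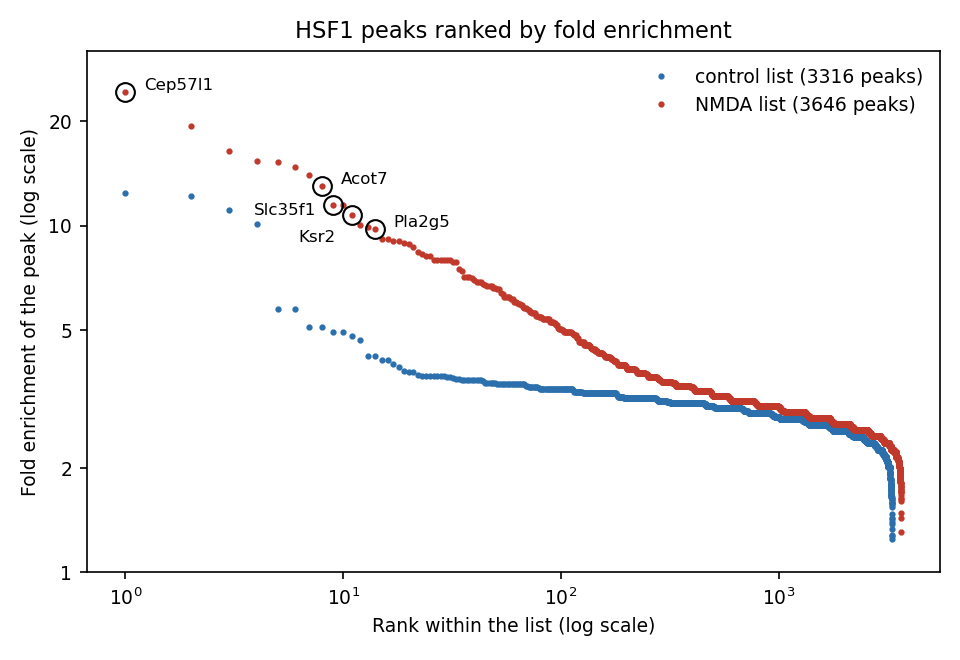
Fold enrichment (vertical axis, log scale) of every HSF1 peak against its rank within its list (horizontal axis, log scale), for the control list in blue and the NMDA list in red, with the 5 lead peaks circled. The lead peaks run from 24.3 at rank 1 to 9.79 at rank 14, and only 4 control points lie as high as Pla2g5.

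Fragment numbers behind these folds could be recovered. MACS2, which is named in the processing notes, usually computes the fold as the fragment pileup at the summit plus 1 over the background plus 1, and p from a Poisson upper tail. A whole number of fragments and a background that return both the deposited fold and the deposited −log10 p to within 0.001 were found for 3642 of 3646 NMDA peaks (99.9%) and 3312 of 3316 control peaks (99.9%). The recovered background had a lowest and most common value, 8.30 fragments in the NMDA list (2467 peaks, 67.7%) and 8.74 in the control list (2024 peaks, 61.0%). All 5 lead peaks had this lowest background. The background is the divisor of the fold on which the genes were chosen, and a low one favours a high fold, so nothing is read from that count. At this background the fold follows the fragment number alone, and the fragment numbers of the lead peaks are therefore also a description of what was chosen.

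Cep57l1 was covered by 225 fragments at its lead summit (exact Poisson 95% interval 197 to 256). Acot7 had 120 (99.5 to 143). Slc35f1 had 106 (86.8 to 128). Cep57l1 thus had the highest number of the 5. Ksr2 had 99 fragments (80.5 to 121). Pla2g5 had 90 (72.4 to 111). In this order the intervals of neighbours overlapped from Acot7 down, and no difference between the genes was tested. The intervals cover counting error only. PCR copies are not independent molecules, the spread between the 2 libraries is not in them, and the sources used here do not say whether the pileup pools both libraries.

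The chaperone peaks are given beside them as a description. St13, a cochaperone of HSP70, had 163 fragments on a raised background of 10.1. Hspa8, the constitutive HSP70 gene, had 142 (120 to 167), and Hsph1, an HSP70 exchange factor gene, had 141 (119 to 166). The site shared by Hspd1 and Hspe1, the genes of the mitochondrial chaperonin, had 129 (108 to 153). Its summit lay inside Hspd1, 176 bp from the nearer end of that gene and 81 bp from that of Hspe1. The HSP90 gene Hsp90aa1 had 75 (58.99 to 94.0). The 5 chaperone peaks ran from 75 to 163 fragments, the lowest being Hsp90aa1 at rank 24 by fold. The 5 lead peaks ran from 90 to 225, but they were chosen for a high fold, so the 2 ranges are not compared.

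**Figure D2:**
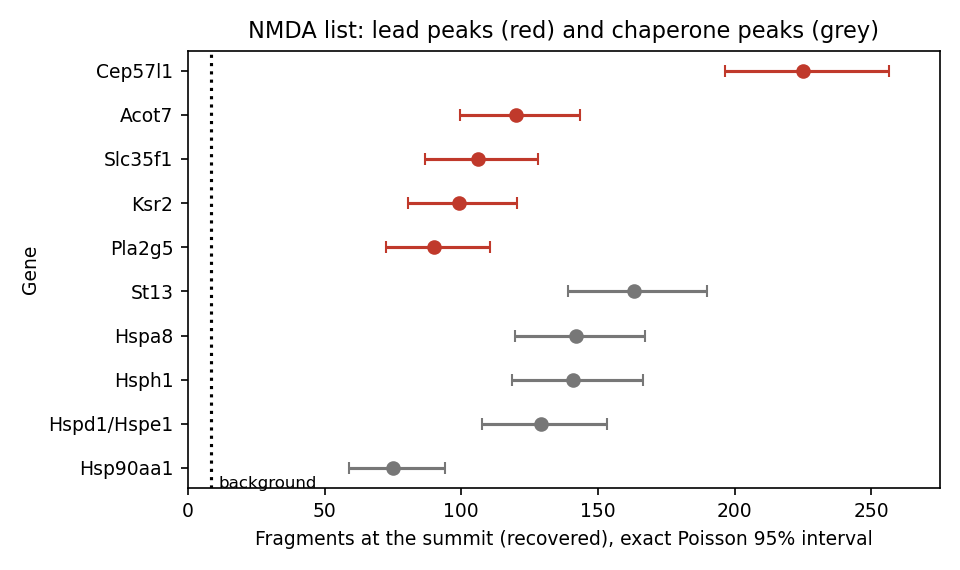
Recovered fragments at the summit (horizontal axis) with exact Poisson 95% intervals for the 5 lead peaks (red) and 5 chaperone peaks of the NMDA list (grey), and the lowest background of 8.30 fragments as a dotted line. Cep57l1 is drawn at 225, and the other lead peaks lie from 90 to 120 with overlapping intervals.

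Each gene was then described by where its peaks lay. The table gives the bounds of a gene without its exons, so peaks inside a gene are not divided into exonic and intronic ones. Strand was read from the promoter windows. Of the 5 lead summits, 4 lay inside the gene and 1 at its 5′ end. The rule took summits inside or within 10 kb of a gene, so these places are in large part set by it. A summit inside a protein-coding gene was found for 49.4% of all NMDA peaks and 51.1% of those of at least 4-fold. The genes ranged from 64.3 to 421 kb in length, against a median of 17.3 kb over all protein-coding genes. Long genes offer more room for a peak, and this was not adjusted for.

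Cep57l1 (chromosome 10, 41718840 to 41809868, minus strand) held its lead peak at chr10:41746125-41747031, with the summit 63.2 kb from the 5′ end, or 69.4% of the way along the gene. No other NMDA peak lay within 863 kb of that summit. The peak ran over the end of a noncoding RNA gene, BC048559, which lies inside Cep57l1 (41746721 to 41780734). The summit was 57 bp outside that end, the closest annotated gene end of any kind. The strand of BC048559 was not used here, so its start and its 3′ end cannot be told apart, and the gene was singled out after its position was seen. The nearest other protein-coding genes were Ccdc162 (30.1 kb) and Sesn1 (63.9 kb), the latter encoding the stress-induced protein sestrin 1.

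Acot7 (chromosome 4, 152178100 to 152271855, plus strand) had its lead peak across the 5′ end of the annotated gene, at chr4:152177794-152178199, with the summit 86 bp before the first annotated base. The one transcription start of Acot7 in the promoter table lies 7.59 kb downstream of that summit and carried no peak. A lesser NMDA peak lay inside the gene at chr4:152214370-152214612, 36.5 kb from the lead summit, with 28 fragments (3.12-fold, with a q of 0.000505 in the authors' deposited table). Acot7 thus had a strong and a weak site after NMDA, with 120 and 28 fragments. Hes2 (15.5 kb) and Espn (25.6 kb) were the next protein-coding genes.

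Slc35f1 (chromosome 10, 52690501 to 53111622, plus strand) is the longest of the 5 at 421 kb. Its lead peak, at chr10:52982737-52983224, had the summit 292 kb from the 5′ end, or 69.4% along the gene. No end of any other annotated gene lay within 100 kb of that summit. A peak of 26 fragments (2.90-fold) lay 21885 bp before the gene, outside the window used.

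Ksr2 (chromosome 5, 117414002 to 117767996, plus strand) had its lead peak near the middle of the gene at chr5:117607467-117608179, 194 kb from the 5′ end (54.8% along the gene). A second NMDA peak lay 34.1 kb away at chr5:117641939-117642366, with 20 fragments (2.26-fold). This was the weakest of the 7 NMDA peaks, with a q of 0.187 in the authors' deposited table. No end of another gene lay within 100 kb of the lead summit.

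Pla2g5 (chromosome 4, 138799247 to 138863562, minus strand) lies in a cluster of secreted phospholipase genes. Its lead peak, at chr4:138852905-138853452, had the summit 10.4 kb inside the gene from its 5′ end, or 16.1% along it. Pla2g2e (24.7 kb), Pla2g2d (71.2 kb) and Pla2g2f (95.6 kb) had an end within 100 kb of the summit, and none of them had a peak of either list within 10 kb. Pla2g2a, 18.02 kb away, is listed as a transcribed pseudogene in this annotation. The ends of Gm13030 (17.8 kb) and Otud3 (37.9 kb), both protein-coding, were also within 100 kb.

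Read together by position, 2 of the 5 lead summits lay within 1 kb of an annotated end of any kind of gene, those of Acot7 (86 bp) and Cep57l1 (57 bp, at BC048559). The share among all NMDA peaks of at least 4-fold was 19.8%. More than 1 NMDA peak within the window was found for 2 of the 5 genes, Acot7 and Ksr2. Across all protein-coding genes, most of which are shorter, the share was 1.51%. The 5 genes have an NMDA peak by choice. Of the 2035 protein-coding genes with an NMDA peak, 326 had 2 or more. The second Ksr2 peak had a q of 0.187 in the authors' deposited table. An NMDA peak of any fold was listed for 9.41% of protein-coding genes, and one of at least 4-fold for 0.578%. These shares are given beside the chosen genes as background only.

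The control list held no peak at any of the lead sites. Of the 5 lead peaks 0 overlapped a control peak by at least 1 bp, and 0 had a control peak within 10 kb. Overlap with a control peak was found for 2.61% of all NMDA peaks and 9.34% of those of at least 4-fold, and 12.1% of the latter had a control peak within 10 kb. Of the 14 NMDA peaks that reached the fold of Pla2g5, 5 overlapped a control peak, those of Hsph1, of Hspd1 and Hspe1, of both Top2b sites and of a site at chr2:174858370-174858929. The genes were chosen with knowledge of which strong peaks were unshared, so the count of 0 of 5 is not independent of the choice. Control peaks with as few as 18 fragments were listed, but a site had to be called as replicated to enter the list. The control signal at a site without a peak is therefore unknown, and no bound is given for it.

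Control peaks elsewhere in or near these genes were weak. Acot7 had 2, at chr4:152221673-152221847 with 22 fragments (2.36-fold, with a q of 0.113 in the authors' deposited table) and at chr4:152223017-152223410 with 23 fragments (2.46-fold, with a q of 0.0708 in the authors' deposited table). They lay 43.7 and 45.3 kb from the lead summit, inside the gene, and neither overlapped an NMDA peak. Slc35f1 had 1 control peak, at chr10:52953857-52954143, 28.98 kb from its lead summit. That peak had 32 fragments on a raised background of 11.9 (2.55-fold, with a q of 0.00945 in the authors' deposited table). Cep57l1, Ksr2 and Pla2g5 had none within 10 kb. The control summits nearest to their lead summits lay 43.7 kb away for Cep57l1, 369 kb for Ksr2 and 2979 kb for Pla2g5. A control peak within 10 kb was thus listed for 2 of the 5 genes, against 10.3% of all protein-coding genes. With q below 0.05, only the Slc35f1 peak was left of the 3. All 5 genes have an NMDA peak by choice, and among all protein-coding genes with an NMDA peak 28.9% also had a control peak. The 3 control peaks had 22 to 32 fragments, the 2 lesser NMDA peaks had 20 and 28, and the median of the control list was 26.

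**Figure D3:**
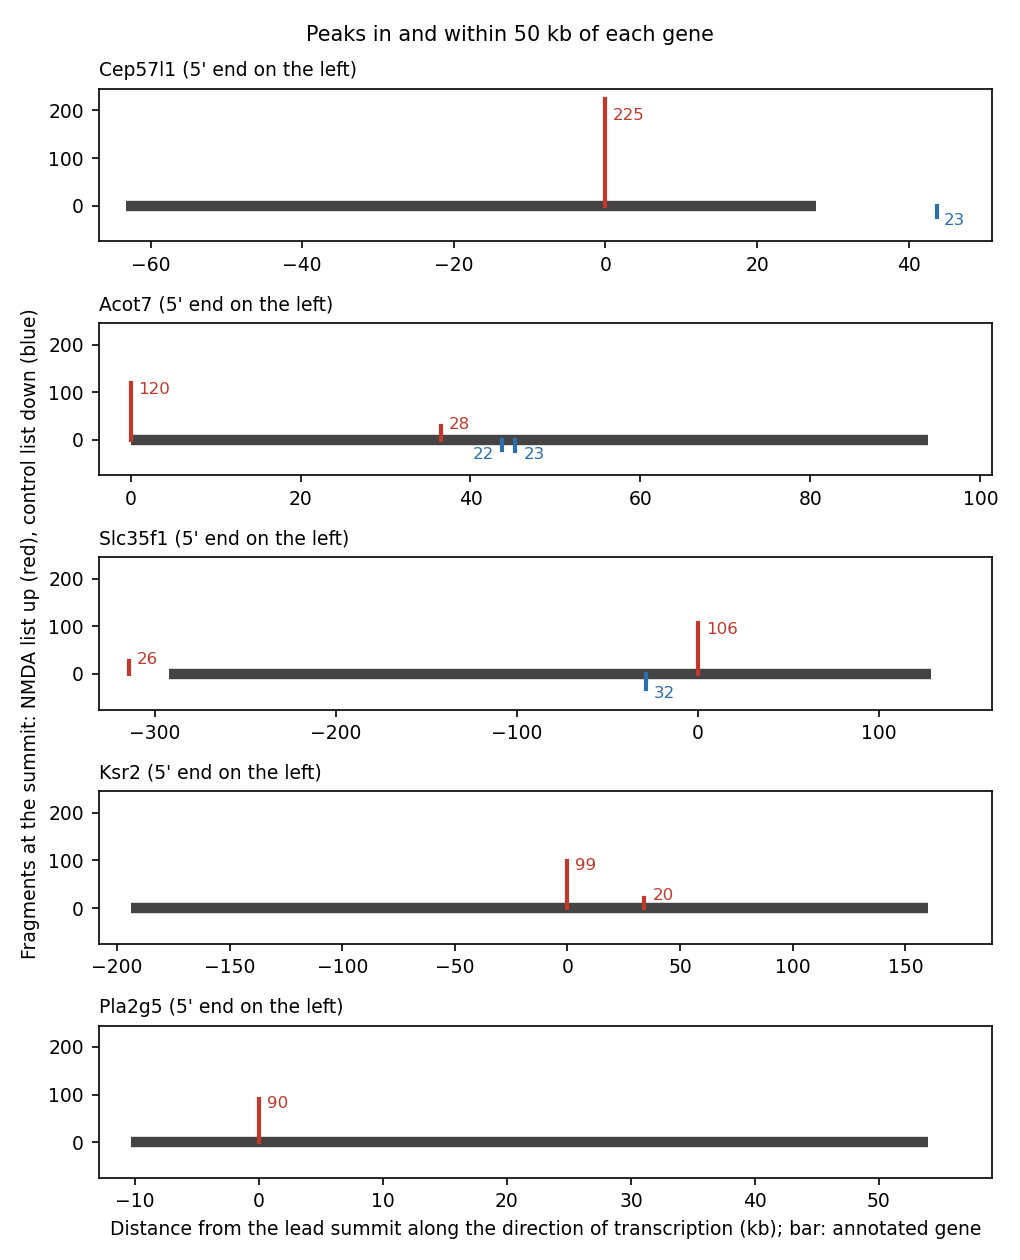
Peaks inside or within 50 kb of each gene, placed by distance from the lead summit in kb along the direction of transcription (horizontal axis), with fragments at the summit as bars upward for the NMDA list and downward for the control list (vertical axis) and the gene as a thick line. Each gene has 1 tall NMDA bar of 90 to 225 fragments, and all other bars, control ones included, have at most 32.

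The shape of the lead peaks varied. Chromatin was sheared to 200 to 500 bp, and the median width was 303 bp over all NMDA peaks. The lead peaks measured 907 bp at Cep57l1, 713 bp at Ksr2, 548 bp at Pla2g5, 488 bp at Slc35f1 and 406 bp at Acot7. Thus 3 of the 5 were wider than 500 bp. Cep57l1 was both highest and widest, and Acot7 was second in fragments and narrowest. Over the other NMDA peaks of the list, the median width was 296 bp at 18 to 29 fragments, 325 bp at 30 to 59 and 520 bp at 60 to 89. The summit lay from 46.7% (Slc35f1) to 66.3% (Ksr2) of the way across the peak. The 19 other NMDA peaks with at least 90 recovered fragments had a median width of 546 bp, with quartiles of 361 and 726.5 bp, against 548 bp for the lead peaks. Among the chaperone peaks the width ran from 529 bp at Hsp90aa1 to 1181 bp at Hsph1. The 2 Top2b sites as strong as the lead peaks measured 325 and 342 bp, narrower than each of the 5.

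**Figure D4:**
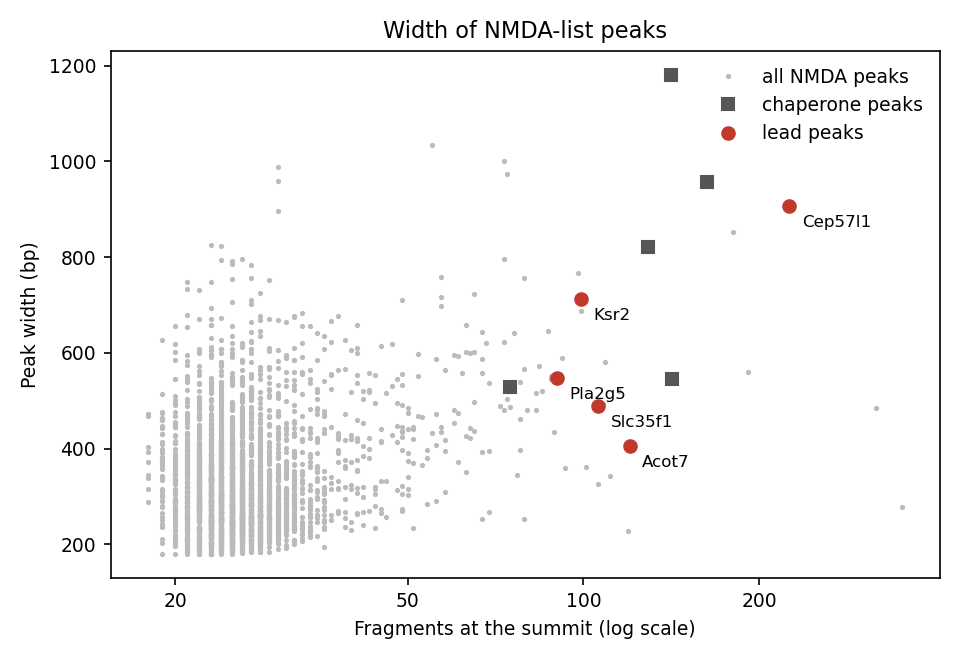
Peak width in bp (vertical axis) against recovered fragments at the summit (horizontal axis, log scale) for the 3642 NMDA peaks with a recovered number, with the lead peaks in red and chaperone peaks as dark squares. Ksr2 and Cep57l1 are wide, at 713 and 907 bp, and Acot7, at 406 bp, is the narrowest lead peak.

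Relatives and partners of the 5 genes were looked up in both lists, as a description. A list of 50 genes covered the CEP57, acyl-CoA thioesterase and SLC35F families, the RAF-MEK-ERK pathway with its scaffolds, and the secreted phospholipases A2, and it contains the 5 genes. Of the other 45 genes 1 had an NMDA peak inside or within 10 kb, Spred1, an inhibitor of RAS-ERK signalling, with 26 fragments (2.50-fold). A control peak was listed for 9 of the 45. These included Cep57 (28 fragments, 2.98-fold), the thioesterase genes Acot2 (26), Acot8 (22) and Acot11 (32), the transporter gene Slc35f6 (19), and in the RAF-MEK-ERK list Ksr1 (28), Map2k2 (24) and Spred1 (27). Ksr1, the closest relative of Ksr2, thus had a weak control peak and no NMDA peak. None of the 10 other phospholipase genes had a peak in either list. The shares over all protein-coding genes were 9.41% for the NMDA list and 10.3% for the control list. The 45 genes differ in length and include the pseudogene Pla2g2a. No test was made between the lists or against these shares.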

How the data were processed

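The data were 2 deposited narrowPeak lists, 1 per condition, from 2 control and 2 NMDA HSF1 ChIP libraries and 1 input library, which was untreated. FastQC, Trimmomatic, BWA, SAMtools and MACS2 and the builds mm10 and GRCm38.p6 are named, without versions, per the submitters' processing notes. No source used here gives the rule that combined 2 libraries into 1 list. Per peak, the deposited values were a score, a fold enrichment (a ratio of ChIP signal over background, on each list's own scale), p and q as −log10 values, and the summit offset. Positions were counted from 1.

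With Python 3.11.15, pandas 2.3.3 and scipy 1.17.1, summits were tied to a gene within 10 kb, overlap meant at least 1 bp, and a fragment pileup was solved for each peak from its fold and −log10 p (tolerance 0.001). Scripts were tested on simulated data. Library depth is not stated. Whether the recovered background of 8.30 (NMDA) and 8.74 (control) fragments follows the depth of the ChIP libraries was not tested. Where a share is given with an interval, it is an exact Clopper-Pearson 95% interval. No p-values were computed. The members and lists were chosen with earlier results of these data known. Named were the 5 genes, relatives and partners with a peak within 10 kb, chaperone genes with strong NMDA peaks, and protein-coding genes with an end within 100 kb of a lead summit. The value of 1 gene is not reported here, though it stays in the counts. The planned motif search within lead peaks was replaced by one in promoter windows.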

Additional observations from a re-analysis of the deposited data

How the results depend on the processing

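With windows of 0 bp, 5 kb and 50 kb, with any overlap of the peak, and with q below 0.05 or 0.01, the NMDA peaks at the 5 genes numbered 6 to 8 (7 as reported). Control peaks numbered 3 or 4 in the window and overlap settings, but 1 with q below 0.05 and 1 with q below 0.01, which left only the Slc35f1 peak. Lead peaks with a control peak stayed at 0 with 50% overlap and with gaps of 1 and 10 kb. The median rank of the lead peaks was 9 by fold, 14 by −log10 p, 14 by −log10 q and 20 by recovered fragments, the last being an alternative chosen after seeing the data. Cep57l1 was at rank 1 by fold, 5 by −log10 p and 7 by fragments, where the 4 peaks without a recovered number were placed first. Promoter windows with a heat shock element, a result added after seeing the data, numbered 0 with at most 1 of 9 fixed bases changed and 1 with the 2-unit elements. The spacing control also matched 1 window, the same one of Pla2g5. The heat shock element alternatives within lead peaks were not run. Leaving out a replicate was not run, because 1 list stands for 2 libraries. No paired analysis was possible because peaks carry 1 value per condition.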

Other observations

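The number in each peak's name follows the order of −log10 p in both lists. These numbers run to 36736 in the NMDA list, which holds 3646 peaks, and to 50997 in the control list, which holds 3316.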
